A study of Macaca fascicularis with 8 samples.

Results

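The open chromatin of heart was compared with that of colon, lung and uterus in an adult female cynomolgus monkey (Macaca fascicularis), healthy and 4 years old, using 4 scATAC-seq libraries that share sex and condition. The liver of the adult female was not compared here. The heart cells were the barcodes of the heart library with at least 1000 counts in peaks, which left 5220 of 5693 barcodes, and these are 5220 of the 78917 cells that pass the same minimum in all 8 libraries of the series. The lowest kept heart barcode held 1000 counts and the highest dropped one 999, and the 473 dropped barcodes had a median of 641. The genome was divided into 162675 regions by merging the peak lists of the 4 libraries wherever peaks overlapped by at least 1 bp. Of these, 23078 regions (14.2%) had a peak in all 4 libraries, and the organs were compared over these shared regions.

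The study mapped chromatin accessibility and transcripts in single cells across organs of cynomolgus monkeys. The heart, colon, lung and uterus samples are all labelled as normal tissue of an adult female. Each organ was sampled in 1 library of 1 animal, so an organ cannot be told apart from its library, and no test between organs was possible. The labels do not give the part of the heart that was taken.

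In scATAC-seq, a transposase cuts DNA that is not wrapped tightly in nucleosomes and marks the cut ends with adapters, so that the number of cut ends in a region measures how open it is. Open regions are mostly promoters, which are often open in many tissues, and enhancers, which are more often open in particular cell types. Genes that define a cell type can lie in long, nearly continuous stretches of open chromatin. The heart holds contractile cardiomyocytes together with endothelial cells, fibroblasts, cells of the vessel wall and immune cells, so a heart library is a mixture of these.

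The label "heart" could not be checked against marker genes. No gene annotation of the build of the peaks was at hand, and the regions are therefore given by position only, on the build of the deposited peaks, and no cluster is named by cell type. The kept cells held 52904154 counts in heart, 110748462 in colon, 102697781 in lung and 41721017 in uterus, with medians per cell between 6465.5 in uterus and 7446 in colon (7077.5 in heart). The kept share was 91.7% of heart barcodes and 89.1% of uterus barcodes, against all barcodes of colon and lung, for which the study forced the number of cells, though to a number that differs from the barcodes in these tables. Of the heart barcodes, 108 also occurred in the colon library, 97 in lung and 45 in uterus, and 535 (10.2%) occurred in at least 1 other library of the series. Whether these were chance matches of barcodes or shared material was not tested.

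The heart library had a peak in 66441 of the merged regions. Of these, 23078 were the shared regions, which took 71.8% of heart counts. A further 13092 regions had peaks in heart and 2 other organs (10.1% of heart counts), 10672 in heart and 1 other organ (7.68%), and 19599 in heart alone (10.4%). The single partner was lung for 5863 regions, colon for 3616 and uterus for 1193, while the uterus list was also the shortest, with 37159 peaks against 68713 in heart, 83244 in lung and 108470 in colon. The shared regions took 61.5% of colon counts, 70.7% of lung counts and 88.3% of uterus counts.

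Accessibility is given below in CPM, the counts of a region per 1000000 counts in all peaks of the library. Over the shared regions the heart library was closest to lung, with a Pearson correlation of log2 values of 0.753, followed by uterus (0.699) and colon (0.649). These correlations run across regions, which are not independent replicates, and the colon and lung libraries had a higher value with each other (0.774). Heart lay within 2-fold of lung in 79.3% of the shared regions, of uterus in 74.8% and of colon in 63.5%. Heart was at least 2-fold above colon in 6673 regions (28.9%) and at least 2-fold below it in 1751 (7.59%). Against lung the counts were 2902 (12.6%) above and 1883 (8.16%) below, and against uterus 2682 (11.6%) above and 3139 (13.6%) below.

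Part of the direction of these splits came with the scale. The median log2 ratio of heart to the other organ was 0.25 for colon, 0.02 for lung and -0.25 for uterus. When each library was scaled to its counts in the shared regions alone, the medians were 0.02, -0.01 and 0.05, and heart was then above uterus in 3584 regions and below it in 2035, so that the split against uterus turned over. The split against colon kept its direction, with 5773 regions above and 2285 below.

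A shared region was called heart-high when heart CPM was at least 2 times the highest of the other 3 organs, and heart-low when it was at most 0.5 times the lowest. By this rule 767 shared regions (3.32%) were heart-high and 591 (2.56%) were heart-low. At 4-fold, 119 regions (0.516%) passed on the high side and 207 on the low side, and 20 regions reached 8-fold on the high side. The threshold falls in a continuous distribution, and 208 regions had a ratio between 1.9 and 2.1. By the same rule 408 regions (1.77%) were colon-high, 350 (1.52%) were lung-high and 1342 (5.82%) were uterus-high. On the low side 3697 regions (16.0%) were colon-low, 404 (1.75%) were lung-low and 1097 (4.75%) were uterus-low. The heart-high regions held 2.56% of heart counts, against 0.369% of colon, 0.696% of lung and 0.718% of uterus counts, a contrast that the rule itself sets. Their median was 25.3 CPM in heart, 3.04 in colon, 6.07 in lung and 6.64 in uterus. Uterus was the next highest organ for 357 of them, lung for 313 and colon for 97.

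**Figure D1:**
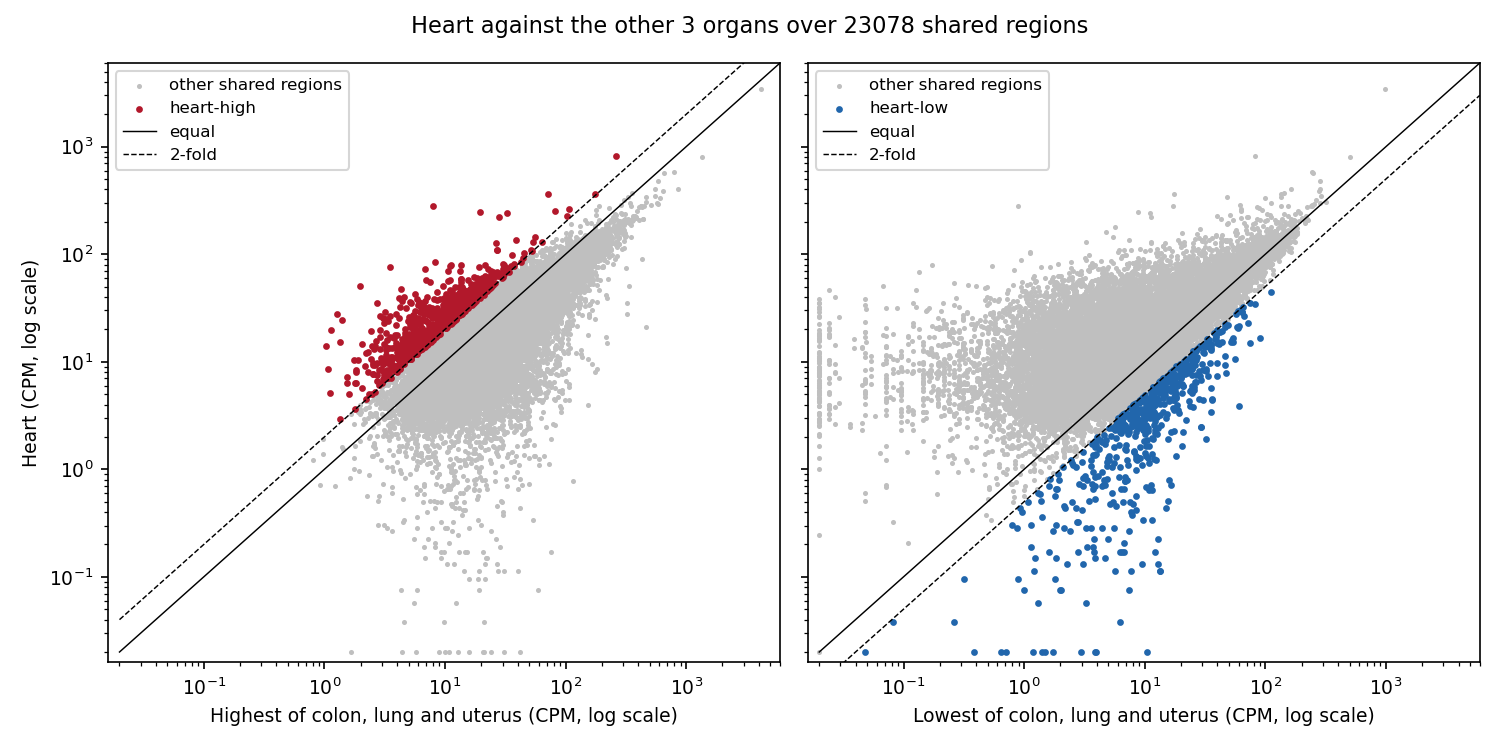
CPM in heart (vertical axis, log scale) against the highest (left) or the lowest (right) CPM of colon, lung and uterus (horizontal axis, log scale), with 1 point for each of the 23078 shared regions and values under 0.02 drawn at 0.02. The 767 heart-high regions lie above the dashed 2-fold line on the left and the 591 heart-low regions lie below it on the right, and heart is the highest organ in 21.5% of the regions and the lowest in 22.9%.

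Peaks were called in each library separately, and a library contributes only the counts inside its own peaks, so the length of a peak enters the comparison. Heart-high regions were regions where the heart peak was long. The heart peak length was the longest of the 4 libraries in 711 of the 767 heart-high regions (92.7%), against 16.3% of all shared regions, and it was the shortest in 92.9% of the heart-low regions, against 12.9%. The median peak length in heart-high regions was 1.42 kb in heart, 0.596 kb in colon, 0.673 kb in lung and 0.339 kb in uterus. In heart-low regions it was 0.353 kb in heart, 1.73 kb in colon, 1.41 kb in lung and 0.654 kb in uterus. A wider opening in heart and a peak caller that drew wider borders in this library cannot be told apart, since counts outside the peaks are not in the tables used here.

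The share of heart-high regions was larger at each step of relative peak length. Since peak length enters the CPM, this relation follows in part from the rule. Where the heart peak was under 0.5 times the longest of the other 3, 0 of 4303 regions were heart-high and 572 (13.3%) were heart-low. Where the ratio was 0.8 to 1.25, 186 of 8835 regions (2.11%) were heart-high. At 1.25 to 2 this was 331 of 1178 (28.1%), and at 2 or more it was 239 of 334 (71.6%). After division by the length of the library's own peak, 250 of the 767 regions (32.6%) were still higher in heart than in each other organ, and 18 kept a 2-fold lead. Of all shared regions, 25 had a 2-fold lead per kb.

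**Figure D2:**
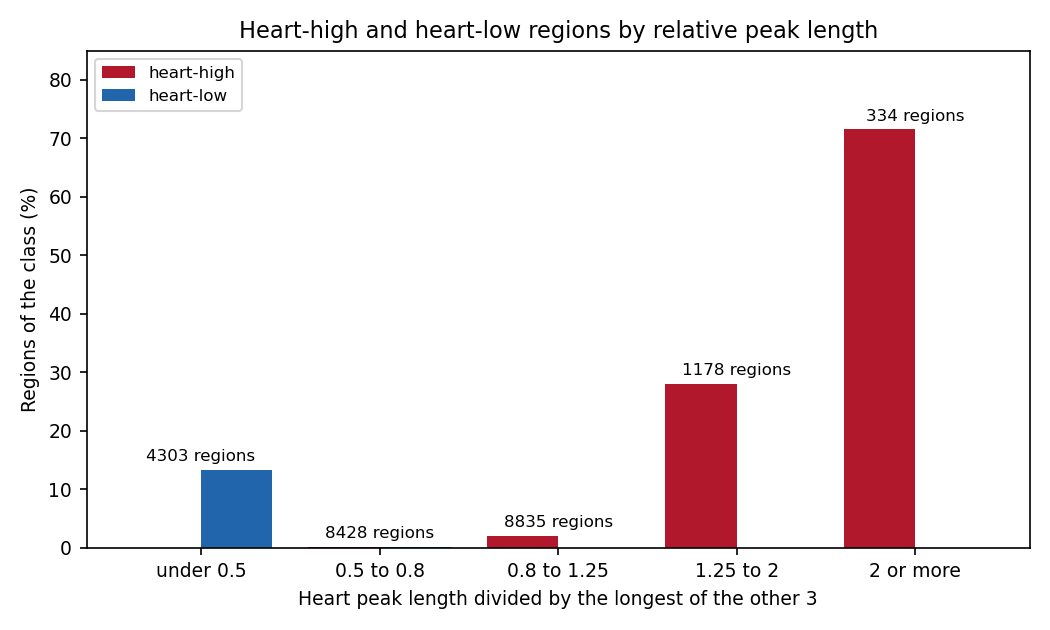
Percent of shared regions that were heart-high (red) or heart-low (blue), in 5 classes of the heart peak length divided by the longest peak length of colon, lung and uterus, with the number of regions above each class. The heart-high share goes from 0 in the class under 0.5 to 71.6% in the class of 2 or more, and the heart-low share is 13.3% in the class under 0.5. Peak length enters the CPM, so this relation follows in part from the rule.

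In 5012 shared regions the 4 peak lengths lay within 1.5-fold of each other. A library's counts come only from its own peaks, so choosing regions by even lengths in itself favours small ratios. None of these regions was heart-high or heart-low, and the ratio of heart to the highest other organ reached at most 1.63. Heart was above all 3 other organs in 330 of them (6.58%), by at least 1.25-fold in 52. Single organs still differed from heart there. Heart was at least 2-fold above colon in 1149 of the 5012 regions and below it in 9, above lung in 270 and below it in 7, and above uterus in 1 and below it in 474. These splits use the total of all peaks, a scale on which the direction against uterus depended above. They were not computed with the total of the shared regions. In the 11147 regions with lengths within 2-fold, 8 were heart-high, with a ratio of up to 2.49, and 18 were heart-low.

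The heart-high regions with the highest ratio of CPM are labelled T1 to T10 here, a ranking made after the values were seen. The first, T1 (chr9:48690259-48709625), held 281 CPM in heart, 4.71 in colon, 0.886 in lung and 7.93 in uterus. This is 35.4 times the highest other organ (95% interval 30.3 to 41.4, from exact counting on fragments, counting error only, as for all intervals of ratios here). Its heart peak was 19.4 kb long, against 1.70 kb in colon, 0.164 kb in lung and 0.377 kb in uterus. T7 (chr9:48672203-48689470) ended 788 bp before T1 and held 248 CPM in heart, 8.72 in colon, 12.96 in lung and 19.7 in uterus, a ratio of 12.6 (11.4 to 13.95). Together the heart peaks of these neighbours spanned about 37.4 kb nearly without a gap, where the other organs had peaks of at most 1.70 kb.

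The other regions of this ranking were shorter. T2 (chr8:17714583-17718172) held 50.1 CPM in heart and at most 1.99 in the other organs, a ratio of 25.2 (20.6 to 31.2). T3 (chr10:92441094-92442734) held 27.9 CPM against at most 1.27. It is not a shared region in the alternative where a peak must start at least 200 bp before the end of the region it joins. T4 (chr7:85711771-85718001) held 76.5 CPM against at most 3.53. T5 (chr16:38916938-38918886) held 24.3 CPM against at most 1.40. T6 (chr2:147371276-147373268), T9 (chr9:107434336-107438822) and T10 (chr1:223418040-223424753) had ratios of 13.01, 10.7 and 10.2. The heart peak was the longest in each of these regions. Per kb of peak, T3 kept a lead of 1.68 and T6 of 1.17, while T1, T2, T4, T5, T7, T9 and T10 were below the highest other organ, with ratios between 0.613 and 0.898. Division by own peak length sets the average over a long heart peak beside a short peak elsewhere. These ratios therefore do not show that the regions were less open in heart.

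T8 (chr4:40028052-40029595) led both in CPM and per kb and is also the first of the regions H1 to H10, which were required to have at least 20 CPM in heart and a 2-fold lead per kb. It held 47.3 CPM in heart, 2.14 in colon, 4.32 in lung and 4.29 in uterus, a ratio of 10.9 (9.48 to 12.7), and 2.03 per kb. Exactly 10 shared regions met the requirement. H2 (chr4:168394966-168396533) held 29.0 CPM in heart and 6.31 in colon, its highest other organ, a ratio of 4.59 (4.03 to 5.21). H3 (chr5:120840821-120842277) held 28.7 CPM in heart and 7.32 in lung, a ratio of 3.92 (3.45 to 4.44). H4 (chr4:156333523-156334798) held 31 CPM in heart with a heart peak of 1.16 kb, shorter than the colon peak of 1.28 kb, and led colon by 3.21 (2.88 to 3.59).

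For H5 (chr1:124351971-124353634) lung followed at 12.5 CPM against 36.5 in heart, while colon and uterus held 0.605 and 0.647. H6 (chr9:32903792-32905098) and H7 (chr8:68904382-68905310) led lung by 2.81 and 2.79. The last 3 regions of this list were not heart-high by CPM. H8 (chr3:72492707-72496150) and H9 (chr2:141349662-141351516) had ratios of 1.96 and 1.76, and H10 (chr6:70885172-70890435) had more CPM in colon (40.2) than in heart (34.9). In H6, H7, H8 and H10 the uterus peak was at most 0.017 kb long and held at most 0.120 CPM, so the uterus gives no usable value there.

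**Figure D3:**
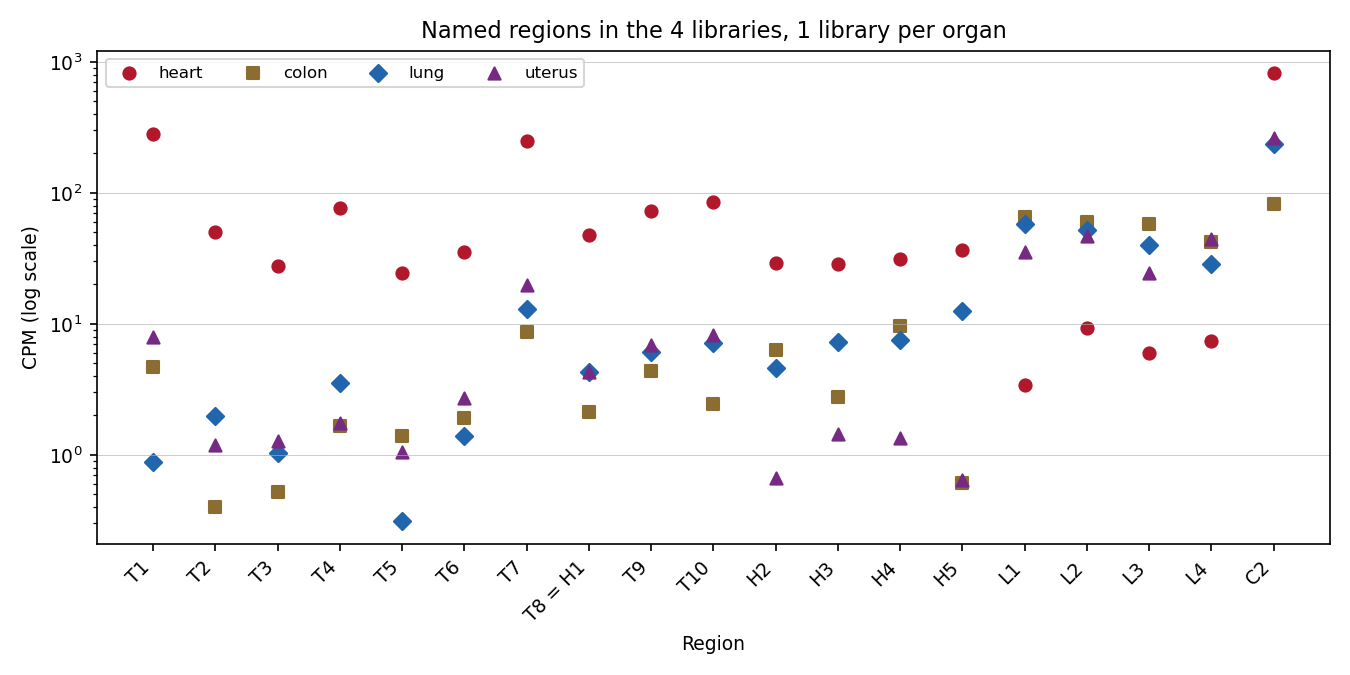
CPM (vertical axis, log scale) of named regions in the heart, colon, lung and uterus libraries, with 1 point per library and no replicates. Heart is the highest point in T1 to T10, H2 to H5 and C2, and the lowest in L1 to L4, and T1 and T7 reach 281 and 248 CPM in heart where the other organs stay under 20.

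Of the 5 shared regions with the highest heart CPM, C1 to C5, all had more than 10 kb of heart peak and 4 were not heart-high. C1 (chr13:70949201-70961373) held 3475 CPM in heart, 984 in colon, 1641 in lung and 4181 in uterus. The share of a heart cell's counts in C1 had a median of 0.307% and a highest value of 80.3%, as the closing section describes. The cause of this spread was not tested. C3 (chr19:1003824-1049291), C4 (chr7:168282951-168312196) and C5 (chr16:8126948-8153982) held 798, 578 and 564 CPM in heart and were all higher in uterus. C2 (chr11:51176705-51209226) was the exception, with 819 CPM in heart, 81.9 in colon, 237 in lung and 261 in uterus, a ratio of 3.14 (3.04 to 3.23). Its peak covered 32.5 kb in heart, 21.7 kb in lung, 9.49 kb in uterus and 6.66 kb in colon, and per kb heart and the highest other organ were close, at a ratio of 0.915. In all, 459 shared regions had at least 5 kb of heart peak and took 6.88% of heart counts, and 30 of them (6.54%) were heart-high, against 3.32% of all shared regions.

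The heart-low regions had a median of 3.36 CPM in heart and between 16.3 and 17.2 in the other 3 organs, and the median ratio to the lowest organ was 0.336. Regions L1 to L4 are the 4 that held at least 20 CPM in each other organ and were also at most 0.5 times the lowest of them per kb. L1 (chr19:6603846-6606572) held 3.40 CPM in heart, 65.5 in colon, 58.2 in lung and 35.4 in uterus, which puts heart 10.4 times (8.34 to 13.1) below the lowest organ. The ratio to the lowest organ, 0.0962, was 0.410 per kb of peak, with a heart peak of 0.374 kb against at least 1.01 kb in the other organs. It was 0.178 with the mean of single cells and 0.0447 without clusters 10 and 14 of the heart cells described below. L2 (chr4:65254749-65256367) held 9.34 CPM in heart and between 46.5 and 59.9 elsewhere. L3 (chr1:15673289-15676086) and L4 (chr10:31305890-31307112) held 6.01 and 7.39 CPM in heart, 4.10 and 3.90 times below the lowest organ. In CPM the ratios to the lowest organ were 0.201 in L2, 0.244 in L3 and 0.257 in L4. Per kb of peak they were 0.371, 0.423 and 0.438.

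Heart also shared high regions with single organs. In 1342 of the 23078 shared regions heart and uterus were both at least 2-fold above colon and lung. In 618 heart and lung were both above colon and uterus, and in 99 heart and colon were both above lung and uterus. Over all shared regions uterus was the highest organ in 48.9%, colon in 15.8% and lung in 13.8%. Colon was the lowest in 49.0%, lung in 14.7% and uterus in 13.4%. Peak length was not taken into account for these pairs. The order differed on the low side, where heart and colon were together below the other organs in 392 regions, heart and uterus in 206 and heart and lung in 154. Scaled to the counts in the shared regions, a setting chosen after the data were seen, the counts on the high side were 1010 with uterus, 699 with lung and 155 with colon, and on the low side 340 with uterus, 253 with colon and 139 with lung, so that uterus then led on both sides.

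The heart-high regions were found on each of chromosomes 1 to 20 and on X. Their share of the shared regions was between 0.936% (5 of 534 regions on the X chromosome) and 4.995% (52 of 1041 on chromosome 9), with 1.45% on chromosome 19. The X chromosome took 1.51% of heart counts, 2.09% of colon, 1.77% of lung and 1.38% of uterus counts. Heart-high regions that lay within 100000 bp of each other formed 12 runs of at least 3, with 39 regions in all. The longest run had 5 heart-high regions among 13 shared regions (chr6:146582962-146798417), with summed values of 213 CPM in heart, 30.8 in colon, 70.8 in lung and 77.8 in uterus. The next run had 4 heart-high regions among 5 (chr11:3225656-3356166), with 147 CPM in heart against 6.28 in colon, 35.6 in lung and 50.02 in uterus. In run 6 (chr16:74680103-74756168) the summed ratio to the highest organ was 3.69, the highest of the 12 runs, and it was picked for this after the values were seen. The heart peaks in these 3 runs were together 10.3, 8.36 and 7.88 kb long, against at most 5.002, 3.30 and 3.96 kb in another organ.

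A shared region was seen in few heart cells. The detection rate, the share of heart cells with at least 1 count in a region, had a median of 10.2% over the shared regions and lay between 2.34% and 29.3% for the middle 90% of regions. At least 50% of heart cells had a count in 60 regions, and fewer than 1% in 211. The median was 10.9% for heart-high and 2.20% for heart-low regions, which follows in part from the rule. T1 and T7 were detected in 30.2% and 28.4% of heart cells, C2 in 74.7% and C1 in 96.6%. When every cell was thinned to 1000 counts, the median over heart-high regions was 2.15% of cells in heart, 0.339% in colon, 0.549% in lung and 0.607% in uterus, against 1.99%, 1.4995%, 1.87% and 2.15% over all shared regions. For heart-high regions this contrast between organs also follows from the rule.

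The spread among heart cells was measured by an index that compares each cell's fragments with the number its depth would give if all cells were alike, so that an index of 1 is counting noise. Its median was 1.14 over the shared regions and 1.18 over the heart-high regions. After thinning of every heart cell to the same depth these medians were 1.01 and 1.02, so little spread could be seen at that depth. Among regions with at least 20 CPM in heart, the variance beyond counting, divided by the squared mean, had a median of 0.874 for 479 heart-high and 0.636 for the other regions. The values overlapped widely, with 5th to 95th percentiles of -0.340 to 3.27 for heart-high and -0.0330 to 2.58 for the other regions. The medians kept their order at each level of CPM. They were 1.21 against 0.857 at 20 to 40 CPM and 0.694 against 0.581 at 40 to 80. At 80 to 160 they were 0.559 against 0.465, and above 160, where only 10 regions were heart-high, 1.10 against 0.437.

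An index below 1 did not mean that a region was even. The 5 regions of lowest index among those with at least 20 CPM, E1 to E5, had values of 0.766 to 0.7998. E2, which is T3, held 72.3 CPM in the deepest cluster (described below) and 19.2 CPM in the other heart cells. After thinning, E1 to E5 had indices of 0.992 to 1.05. The highest index after those of C1 and 2 further regions given in the closing section was that of V4 (chr9:123403185-123403760), at 4.18, and it was 1.27 after thinning.

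Single heart cells differed in how much of their signal lay in heart-high regions. The heart-high score, the percent of a cell's counts that lie in these regions, had a median of 2.50 in heart cells, with 1.04 and 3.43 as the 5th and 95th percentiles. Its SD over heart cells was 0.613, against 0.313 from counting alone. The median score was 0.316 in colon cells, 0.610 in lung cells and 0.698 in uterus cells. The 5th percentile of heart cells was reached by 8.30% of colon, 20.3% of lung and 14.96% of uterus cells. The rule that chose the regions itself sets this contrast between organs, and each organ is counted only inside its own peaks.

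To see which heart cells carried the regions, heart cells were clustered on the shared regions that are not heart-high. This gave 14 clusters with at least 1% of cells each and 5216 cells in all, and the other 4 cells were left out. Clusters share the heart peaks, so peak length is the same for each of them. The heart-high score was between 0.677 in cluster 14 and 3.16 in cluster 9, and 12 of the 14 clusters lay between 2.17 and 3.16. Over the 479 heart-high regions with at least 20 CPM, the highest cluster held a median of 2.02 times the CPM of all heart cells (5th to 95th percentile 1.41 to 2.97). The highest of 14 clusters lies above the pooled value by construction, and no such ratio was computed for the other shared regions. All comparisons between clusters are descriptions of 1 library.

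**Figure D4:**
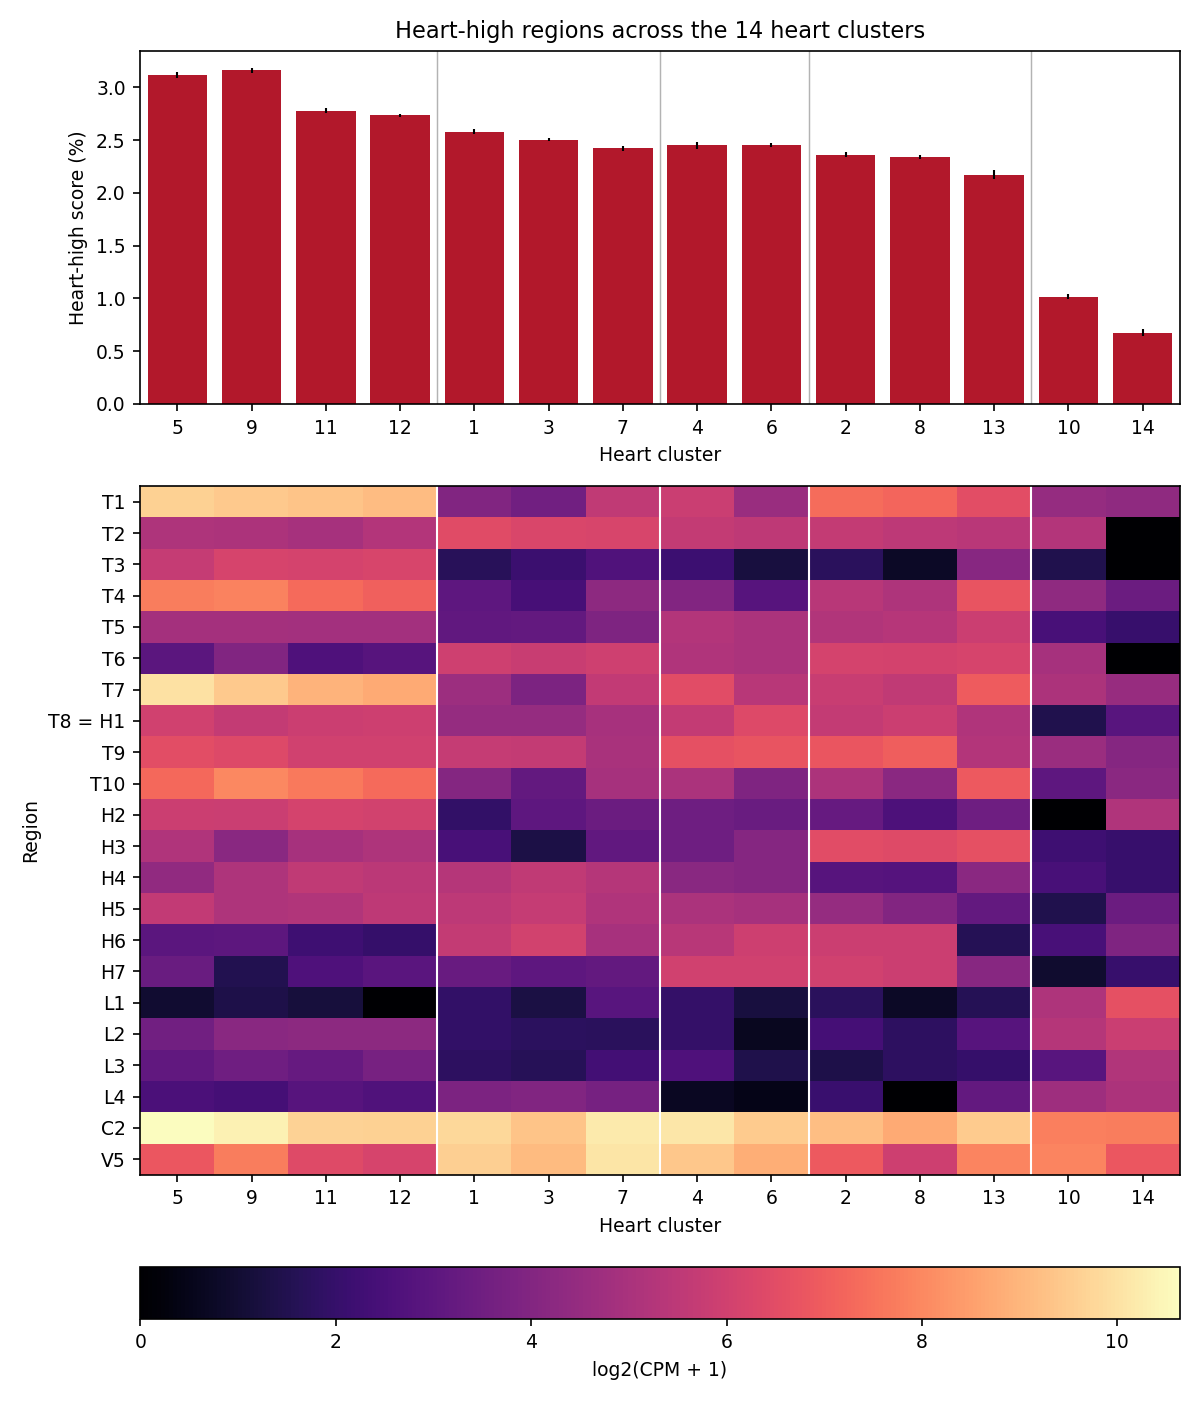
Top, the heart-high score (percent of counts in heart-high regions) of the 14 heart clusters, with 95% intervals for counting error. Bottom, log2(CPM + 1) of named regions in the same clusters, ordered by likeness with lines between the sets. T1, T4, T7 and T10 are brightest in clusters 5, 9, 11 and 12, V5 is brightest in clusters 1, 3 and 7 with 4 beside them, and L1 to L4 are brightest in cluster 14, where the score is lowest.

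The profiles of the heart-high regions put most clusters into sets of high correlation. The 479 regions were chosen by their CPM over all heart cells, to which deep and large clusters give more counts, so the numbers of regions per set are not compared. Clusters 5, 9, 11 and 12 held 1178 cells (22.6%) and 38.3% of heart counts, and their profiles over the 479 regions correlated at 0.934 to 0.982. They included the deepest cells, with medians of 21101 counts in cluster 11 and 40635 in cluster 12, but also cells of common depth in cluster 5 (4988 counts). Doublet removal, an alternative here, took 14.5% of the cells of cluster 12 and 16.1% of those of cluster 3. In every other cluster it took at most 8.22%. Without the cells of clusters 11 and 12, a setting chosen after the data were seen, 854 shared regions were heart-high and 599 heart-low. The ratio to the highest other organ was then 21.9 in T1, 10.3 in T3, 6.43 in T10, 2.56 in H2 and 1.08 in H8. In clusters 5, 9, 11 and 12 T1 held between 571 and 792 CPM, against at most 165 in any other cluster, and T7 between 427 and 1025 CPM against at most 123. T3 held 51.1 to 72.3 CPM there and at most 16.4 elsewhere, and T10 156 to 258 CPM and at most 120 elsewhere.

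The regions that separate each set most sharply were picked after the values were seen, as the 3 with the highest ratio of the lowest cluster inside to the highest cluster outside. For clusters 5, 9, 11 and 12 the first was K1 (chr4:15550230-15552470), with 66.1 to 86.3 CPM inside and at most 11.2 outside. K3 (chr14:18434859-18450883) was a further long region, with 413 to 702 CPM inside, at most 92.5 outside, and 221 CPM over all heart cells against 11.2 in colon, 26.9 in lung and 28.3 in uterus. Per kb of peak, the ratio of heart to the highest other organ was 0.376 in K3 and 1.80 in K1.

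Clusters 1, 3 and 7 were the largest set, with 1662 cells (31.8%) and correlations of 0.826 to 0.968. K4 (chr4:56947215-56950498) held 115 to 155 CPM in them and at most 31.7 in other clusters, and K5 (chr20:43686381-43688615) 91.9 to 107 CPM and at most 33.3. The correlation of these clusters with clusters 5, 9, 11 and 12 was between -0.273 and 0.091. Other heart-high regions were open in most clusters. T2 held 29.5 to 88.3 CPM in 13 clusters and had no count in cluster 14, and H5 held 8.18 to 51.8 CPM in 13 clusters and 1.81 in cluster 10.

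Clusters 2 and 8 correlated at 0.946 and held 896 cells (17.2%). H3 held 90.2 and 85.8 CPM in them and 97.1 in cluster 13, and at most 35.5 CPM in the other clusters. K10 (chr5:79856744-79859116) held 67.2 to 75.7 CPM in clusters 2 and 8 and at most 28.9 outside. The uterus-high regions took 2.71% and 2.63% of the counts of these clusters and 2.63% of those of cluster 13, more than in any other heart cluster, where the share was at most 1.96%. Uterus-high regions were among the regions used for clustering. Clusters 4 and 6 (916 cells, correlation 0.900) correlated at 0.509 to 0.584 with clusters 1, 3 and 7, at 0.398 to 0.436 with clusters 2 and 8, and at -0.07 to 0.126 with clusters 5, 9, 11 and 12. H7 held 62.8 CPM in each of them, 62.8 and 57.6 CPM in clusters 2 and 8, and at most 16.4 CPM elsewhere.

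**Figure D5:**
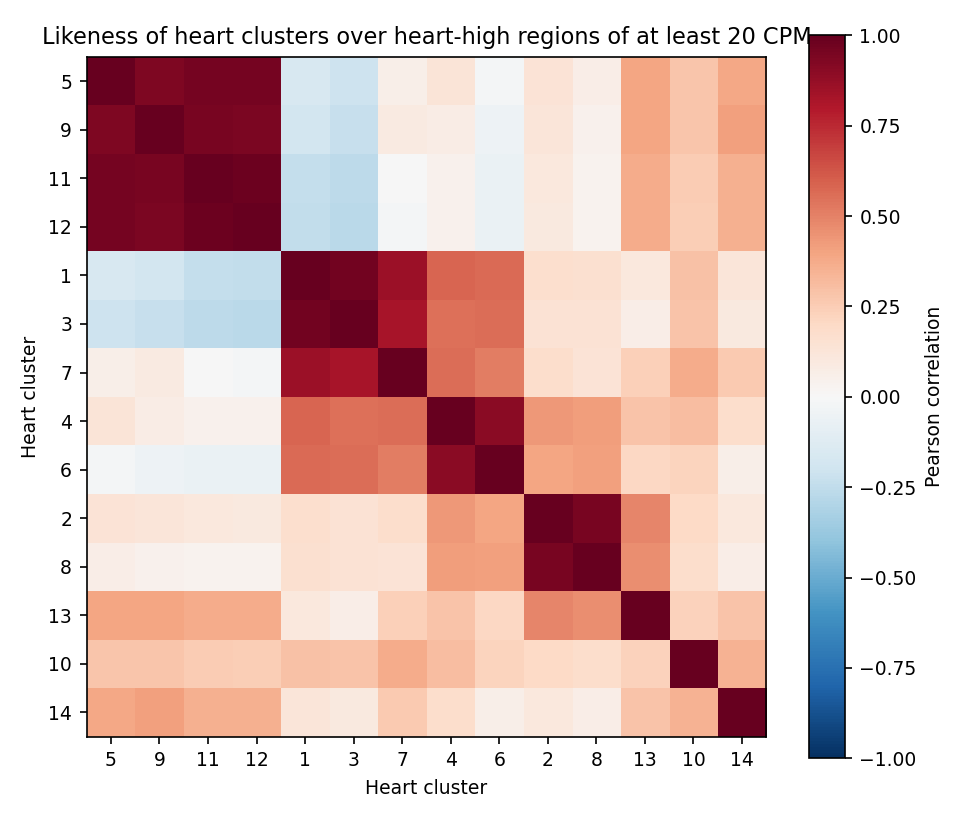
Pearson correlation of log2(CPM + 1) between the 14 heart clusters over the 479 heart-high regions with at least 20 CPM in heart, which were not used for clustering. Clusters 5, 9, 11 and 12 form 1 block (0.934 to 0.982), clusters 1, 3 and 7 another (0.826 to 0.968), and clusters 2 and 8 a pair (0.946), while clusters 10 and 14 correlate with no other cluster above 0.414.

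Clusters 10 and 14, with 255 and 112 cells, stood apart from the rest of the heart library. Their heart-high scores were 1.02 and 0.677, and heart-low regions took 0.664% and 0.808% of their counts, against at most 0.327% in the other clusters. They held 3.28% of heart counts but 8.01% of the heart counts in heart-low regions. Heart-low regions, L1 to L4 included, were among the regions used for clustering. Of the 591 heart-low regions, 126 (21.3%) were highest in cluster 10 and 163 (27.6%) in cluster 14, but so were 15.4% and 28.3% of all shared regions, so the count for cluster 14 is no more than the background. L1 held 96.8 CPM in cluster 14 and 34.4 in cluster 10 and at most 6.37 in any other cluster, while the value over all heart cells was 3.40. Their correlation with the colon library was 0.763 and 0.838, against at most 0.652 for other heart clusters, and with the lung library 0.769 and 0.748, against at most 0.768, so that cluster 10 was slightly closer to lung than to colon. Colon-high regions, which were also among those used for clustering, took 0.856% and 1.32% of their counts, against at most 0.514% in the other clusters. Of their barcodes, 12.9% and 7.14% also occurred in another library, against 9.01% to 12.01% in the other clusters, and 3 and 1 of them in the colon library. Without these cells, 813 shared regions were heart-high and 651 heart-low, a setting chosen after the data were seen.

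The study shows a window for the endothelial gene EGFL7, which could not be checked against an annotation. A region in it had similar CPM in heart and lung. This region (V5, chr15:1785716-1810366), which was among those used for clustering, held 337 CPM in heart, 330 in lung, 136 in uterus and 48.1 in colon, and within heart between 551 and 1072 CPM in clusters 1, 3 and 7 but 687 in cluster 4 and 458 in cluster 6, and at most 240 CPM in the other clusters. The other shared regions of that window held 35.3 CPM (chr15:1777272-1781495) and 75.2 CPM (chr15:1819018-1823375) in heart, against 45.03 and 66.02 in lung.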

How the data were processed

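Single-cell chromatin accessibility was measured in 8 libraries, of which the heart, colon, lung and uterus libraries of the female animal were compared. Per the submitters' processing notes, the authors ran Cell Ranger ATAC 1.2.0 on each library, with a peak list for each, and deposited raw counts (cut ends in a peak, by barcode). The study aligned its scRNA-seq reads to macFas6. For the scATAC-seq reads no build was given in the sources used here. Counts are mostly even (79.8% of heart entries), because both ends of a fragment usually fall in the same peak. The authors removed doublets at a later step, so the tables still hold them. They are kept here, and their removal is an alternative.

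Barcodes with at least 1000 counts were kept, and the peaks of the 4 libraries were merged at an overlap of 1 bp. Counts were summed per region and divided by the library's counts in all peaks (CPM), with no filter on low values. With 1 library per organ no test was run. Ratios have exact 95% intervals on fragments (counts divided by 2), which cover counting error only. The spread index is the mean over cells of the squared difference from the expected fragments, divided by the expected fragments.

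Heart cells were clustered on binarized shared regions outside the heart-high ones, by term frequency and inverse document frequency, 30 components less those whose correlation with depth exceeded 0.75, and the Leiden method at resolution 0.8 on 20 nearest neighbours (leidenalg 0.10.2, igraph 0.11.9, scikit-learn 1.9.0, numpy 2.4.6, scipy 1.17.1). The steps were tested on simulated data. Regions named in the text were those of highest ratio in CPM with a 2-fold lead per kb and 20 CPM in heart (H), of lowest ratio (L), of highest CPM (C), of highest (V) and lowest (E) spread index, the longest runs and the windows of EGFL7 and JCHAIN. T and K regions were chosen after their values were seen. The groups, regions and lists were chosen with earlier results of these data known.

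Alternatives were the minimum of counts, doublet removal, the overlap, peak length, the total for CPM, the weight of cells, low values, the comparison, the fold, thinning, and the resolution and seed of the clustering.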

Additional observations from a re-analysis of the deposited data

How the results depend on the processing

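No paired analysis was possible because each organ has 1 library and the result comes from no test. Leaving the single named regions aside, 57 values under an alternative stayed close to the reported one and 27 moved. The counts of 767 and 591 stayed within 1.5 times under both other minimums of counts, doublet removal and the 200 bp setting for joining peaks. The same held with single peaks per library, the total of shared regions and the mean over cells. It also held without clusters 10 and 14 or 11 and 12. The counts moved further under the choices that follow. Per kb of peak, 25 regions were heart-high and 18 heart-low, and past 2-fold there were 1632 regions against lung (1529 above, 103 below) and 3699 against uterus (156 above, 3543 below), while the 7847 against colon were split into 7782 and 65. With peak lengths within 1.5-fold, chosen after the data were seen, the counts were 0 and 0, and within 2-fold 8 and 18. With at least 20 CPM in a library they were 479 and 376, and 5035, 2872 and 3423 regions passed 2-fold against colon, lung and uterus. Against the mean of the other 3 they were 2377 and 1986, and at 4-fold 119 and 207. The fold and the comparison change these counts by construction. Peak length enters the CPM of a region, so the settings of peak length also change these counts in part by construction. Any further cause was not tested. The runs fell from 12 to 0 at 4-fold and to 3 with at most 50000 bp between neighbours.

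Median detection of shared and heart-high regions was 11.3% and 12.04% at a minimum of 2000 counts and 1.99% and 2.15% after thinning to 1000 counts, and 10.03% for heart-high regions with all barcodes. The median spread index was 1.01 and 1.02 after thinning, and 1.19 for heart-high regions at a minimum of 2000 counts. Clustering gave 10 to 15 clusters. Over the named regions, 184 ratios stayed within their interval, 52 moved outside it and 8 crossed 1. Of those that moved, 15 did so with the mean over cells, among them T3 (11.7), T5 (10.3) and L1 (0.178). Another 14 moved without clusters 11 and 12, and 1 without clusters 10 and 14 (L1, 0.0447). Per kb of peak 14 moved, among them L1 (0.410), L2 (0.371), L3 (0.423) and L4 (0.438). With the total of shared regions 8 moved. The ratio crossed 1 per kb of peak in T1 (0.689), T2 (0.769), T4 (0.7504), T5 (0.898), T7 (0.744), T9 (0.613), T10 (0.638) and H10 (2.03). The 4 organs compared have 1 library each.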

Other observations

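Among heart cells the shared region of highest spread was C1 (also V1), with a spread index of 172, and V2 (chr14:23000278-23002241) and V3 (chr9:13769210-13769906) followed with 13.7 and 6.57. After thinning the indices were 45.9, 4.16 and 2.26. The median heart cell had 0.307% of its counts in C1, while 64 cells (1.23%) had more than 5% there and the highest had 80.3%. The 3 regions kept nearly fixed proportions on different chromosomes. V2 held 5.87% to 7.01% of the CPM of C1 over the 14 heart clusters and 5.93% to 7.12% over the 4 organs, and V3 held 2.17% to 3.18% and 1.95% to 2.48%, although C1 itself went from 1157 CPM in cluster 12 to 14229 in cluster 4. Their peak lengths were nearly the same in all 4 libraries, with C1 at 11.1 to 12.2 kb and V2 at 1.93 to 1.96 kb. V4 did not keep such a proportion, with 0.272% to 1.03% over clusters.

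The shared regions of the JCHAIN window on chromosome 5, a gene of antibody-secreting cells, differed little between heart, lung and uterus. The first (chr5:63574358-63577617) held 44.3 CPM in heart, 59.8 in colon, 42.6 in lung and 46.8 in uterus, and the second (chr5:63593717-63595654) 61.0, 55.4, 60.6 and 63.7.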
